A study of Mus musculus with 24 samples.

Results

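The genes described here are 10 components of Notch signalling, the receptors Notch1, Notch2 and Notch3, the ligands Dll1, Jag1 and Jag2, and the target genes Hes1, Hey1, Hey2 and Heyl, measured by RNA-seq in mouse myoblasts. They are the rows of the deposited table with these gene names, 10 of the 28109 genes that it lists. In Notch signalling a transmembrane ligand on one cell binds a receptor on its neighbour, the receptor is cleaved, and its intracellular domain enters the nucleus, where it joins the DNA-binding protein Rbpj and switches on genes of the Hes and Hey families. These encode basic helix-loop-helix repressors. In skeletal muscle the pathway is known for holding satellite cells and myoblasts in the undifferentiated state, and Tead1 and Tead4 are transcription factors that bind the MCAT element and act in the Hippo pathway.

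Libraries of polyadenylated RNA were made from C2C12 cells, an established mouse myoblast line (strain C3H in the labels), and from primary myoblasts (PMs), which were isolated from wild type C57BL/6 mice 3 to 4 weeks old and grown on matrigel. Both were transfected with a control siRNA, siLuc in the labels and non-targeting in the methods of the study (siControl), or with pools of siRNAs against Tead1 and Tead4 together (siTead1/4). RNA was taken 24 hours later, before the move to differentiation medium (day 0), and after 3 and 6 days in medium with 2% horse serum (day 3 and day 6), with 2 biological replicates in each of the 12 groups. The silencing was transient, C2C12 is 1 line, and the labels do not say how many mice gave the PMs, so the spread between replicates may not include that between animals. By the methods of the study C2C12 cells were kept in DMEM and PMs in IMDM. Cell type, strain, culture medium and matrigel coating therefore cannot be told apart wherever PMs are compared with C2C12 cells.

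The libraries held 25453830 to 52784510 counts on genes, with a median of 39204772, and each member passed the filter on low counts in both cell types. Levels are CPM (read counts scaled to a common library size by TMM over all 24 libraries), given as replicate 1 and replicate 2. Changes are log2 fold changes ± SE from edgeR's quasi-likelihood test, and adjusted p-values are by Benjamini-Hochberg over all genes tested. A gene was called when the adjusted p was below 0.05 and the log2 fold change was beyond 1 in either direction, and only called genes are said to have risen or fallen. Replicates correlated at 0.983 to 0.996 (Pearson's r of log CPM across genes, which are not independent), lowest in the siTead1/4 C2C12 groups. Tead4 fell with siTead1/4 in PMs at all 3 days and in C2C12 cells at day 0 and day 3 (-2.21 ± 0.36 and -1.76 ± 0.35), whereas at day 6 its change in C2C12 cells was -1.28 ± 0.34, edgeR adjusted p = 0.318. Tead1 fell in PMs at day 0 and day 3 and was not called in C2C12 cells at any day (-2.46 ± 0.66, -1.09 ± 0.63 and -0.52 ± 0.63 at day 0, day 3 and day 6). The 6 myoblast markers Myod1, Myf5, Des, Cdh15, Pax7 and Myog were present in every library, with a summed level of 622 to 6097 CPM in C2C12 cells and 3947 to 8804 CPM in PMs.

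Markers of other cell types were at 0.256 to 1.49 CPM for the 6 endothelial genes in C2C12 cells and 2.96 to 15.2 CPM in PMs, where replicate 1 was the higher in 6 of 6 groups. The pericyte and smooth muscle list, summed over 6 genes, covered 136 to 506 and 158 to 421 CPM. In it Pdgfrb was at 63.5 to 428 CPM in C2C12 cells, Rgs5 at 0.913 to 133 and Abcc9 at 30.4 to 236 CPM in PMs, and Kcnj8 at no more than 0.0964 CPM in any library. The fibroblast list covered 7.83 to 216 and 18.4 to 161 CPM, with Dcn at 0.675 to 201 CPM in C2C12 cells and 1.05 to 64.3 CPM in PMs, Thy1 at 11.9 to 84 CPM in PMs and Tcf21 at 0 in all 24 libraries. The macrophage list covered 3.11 to 9.33 and 1.07 to 2.79 CPM with Emr1 at 0 in all 12 C2C12 libraries, and the Schwann list covered 4.83 to 399 and 84.4 to 373 CPM, nearly all of it Erbb3. The part that such cells have in the results was not tested, and in bulk RNA fewer cells that express a gene and less RNA per cell cannot be told apart.

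On mm9, the build of the deposited table, Notch1 (ENSMUSG00000026923, chr2:26313423-26372183, minus strand), Notch2 (ENSMUSG00000027878, chr3:97817461-97954290, plus strand) and Notch3 (ENSMUSG00000038146, chr17:32257765-32303825, minus strand) encode the receptors. Dll1 (ENSMUSG00000014773, chr17:15504318-15513836, minus strand), Jag1 (ENSMUSG00000027276, chr2:136907192-136942380, minus strand) and Jag2 (ENSMUSG00000002799, chr12:114146801-114167706, minus strand) encode the ligands. The target genes are Hes1 (ENSMUSG00000022528, chr16:30064470-30067882, plus strand), Hey1 (ENSMUSG00000040289, chr3:8663362-8667039, minus strand), Hey2 (ENSMUSG00000019789, chr10:30552165-30562607, minus strand) and Heyl (ENSMUSG00000032744, chr4:122910799-122927118, plus strand). All 10 are protein coding, and their positions are identical in the GENCODE vM1 annotation. Notch1, Notch3 and Dll1 overlap lincRNA genes on the opposite strand, and since the library kit keeps no strand, reads in the shared stretches cannot be assigned to either.

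The 250 bases upstream of the transcription start were searched for the core of the MCAT element (CATTCC) and for the core of the Rbpj site (TGGGAA), on both strands. RefSeq windows (build GRCm38.p6) were found for 7 members, 8 windows in all, with none for Hes1, Hey1 and Heyl. Notch1 held 2 copies of CATTCC, which start at -233 and -216 counted from the transcription start, and Hey2 held 1 at -209, while none was in the windows of Notch2, Notch3, Dll1, Jag1 and Jag2. Of all 32851 windows, 12.6% held CATTCC and 21.6% held TGGGAA. The only TGGGAA among the members was in Hey2, on the minus strand at -207, where it overlaps the MCAT letters. Both sequences are shown because Notch1 and Hey2 were the members whose windows held the letters of either element, and their values under siTead1/4 are given further on. The capitals mark CATTCC in Notch1 (chr2:26503823-26504072, minus strand) and the overlapping CATTCC and TTCCCA in Hey2 (chr10:30842784-30843033, minus strand), and a match of letters does not show a bound site.
Notch1: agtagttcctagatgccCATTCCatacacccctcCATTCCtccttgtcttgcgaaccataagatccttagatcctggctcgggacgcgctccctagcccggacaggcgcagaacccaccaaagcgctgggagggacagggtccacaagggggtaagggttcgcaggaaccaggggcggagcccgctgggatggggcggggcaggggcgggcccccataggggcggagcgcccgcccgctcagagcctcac
Hey2: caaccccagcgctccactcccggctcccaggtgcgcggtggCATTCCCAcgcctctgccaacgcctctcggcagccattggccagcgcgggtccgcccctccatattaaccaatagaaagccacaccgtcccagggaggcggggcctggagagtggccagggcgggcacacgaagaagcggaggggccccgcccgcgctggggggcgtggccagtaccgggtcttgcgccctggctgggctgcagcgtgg

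To compare the members with one another, levels were divided by the gene length that the table gives (CPM per kb). In undifferentiated siControl C2C12 cells the receptor transcripts were mostly Notch2, at 61.6% and 57.8% of the summed receptor level in the 2 replicates, ahead of Notch3 with 27.2% and 26.9% and Notch1 with 11.2% and 15.2%. The ligand transcripts there were almost entirely Jag2, at 91.8% and 92.7%, and Dll1 made up 0.803% and 0.491%. Hes1, the widely used target of Notch receptors, made up 84.4% and 88.1% of the target level.

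PMs at day 0 had another composition. Notch3 led the receptors with 60.7% and 58.5%, Dll1 reached 35.1% and 42.5% of the ligand level beside Jag2 with 60.5% and 52.7%, and the target level was split between Hes1 with 38.4% and 38.6%, Hey1 with 38.2% and 37.8% and Heyl with 22.9% and 23.4%. The summed receptor level was 60.2 and 47.5 CPM per kb in PMs against 26.2 and 27.8 in C2C12 cells, and the summed ligand level was 56.1 and 51.7 against 32.6 and 31.8. Hey2 was the lowest member of all in PMs, at 0.274 and 0.122 CPM per kb.

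At day 3 the order of the receptors in C2C12 cells had turned, with Notch3 at 54.0% and 53.7% and Notch2 at 35.6% and 33.7% of the receptor level, and Dll1 held 30.0% and 29.4% of the ligand level. In PMs at the same day Jag2 held 73.2% and 70.8% and Dll1 18.5% and 21.4% of the ligand level, and Hey1 had gone from 38.2% and 37.8% to 6.07% and 5.75% of the target level. Heyl led the targets of PMs at day 3 with 49.0% and 63.1% and Hes1 followed with 44.1% and 30.7%. The summed receptor level of PMs was 13.8 and 18.8 CPM per kb at day 6, below the 30.0 and 35.9 of C2C12 cells.

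**Figure D1:**
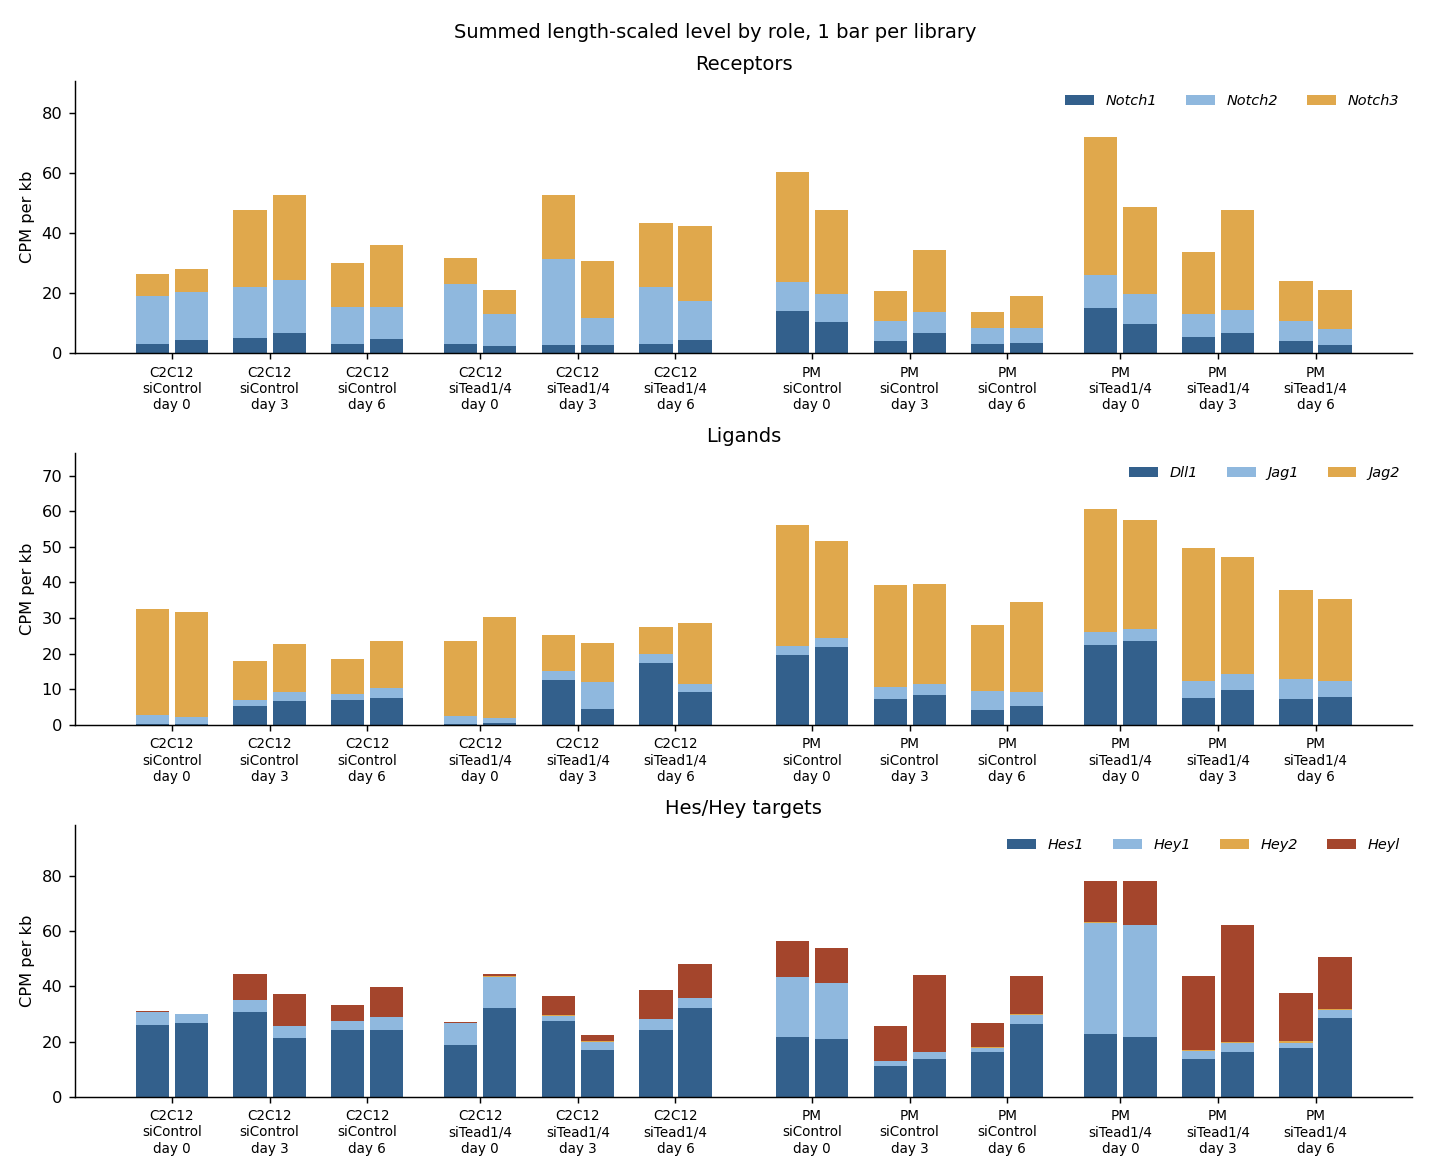
Summed length-scaled level (CPM per kb, linear axis) of the receptors, ligands and Hes/Hey targets, with 1 stacked bar for each of the 24 libraries and 1 colour for each gene. Dll1 is almost invisible in C2C12 cells at day 0 (siControl, 0.262 and 0.156 CPM per kb) and a large part of the bar in PMs at day 0 (19.7 and 22.0).

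The first comparison asked how the pathway changes as siControl C2C12 cells differentiate. From day 0 to day 3, 5 of the 10 members were called, Notch3, Dll1 and Heyl upward and Jag2 and Hey2 downward, where 28.7% of all 15303 genes tested were called. Notch3, a receptor, was at 57.5 and 60.2 CPM at day 0 and at 206 and 227 CPM at day 3, a rise of 1.84 ± 0.20, edgeR adjusted p = 9.12e-05. The ligand Dll1 went from 1.04 and 0.622 CPM to 21.4 and 26.7 CPM, a rise of 4.84 ± 0.57, edgeR adjusted p = 1.35e-04. Heyl, a Hey family repressor, went from 1.15 and 0.942 CPM to 48.4 and 59.1 CPM, which was the steepest rise of a member at this step with 5.65 ± 0.61, edgeR adjusted p = 8.81e-05. For these genes both day 3 libraries exceeded both day 0 libraries, which is no support beyond the calls by which they were chosen.

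Jag2 moved the other way. It stood at 121 and 119.6 CPM at day 0 and at 44.3 and 55.3 CPM at day 3, a change of -1.31 ± 0.34, edgeR adjusted p = 0.0113, and without the first replicate of day 3 its call was lost (-1.15, adjusted p = 0.0875). Hey2 had 11 and 15 counts at day 0 and 2 and 2 at day 3, at or under the floor of 3 counts, so only the ratio of the pooled CPM is given, 0.154 with a 95% interval of 0.039 to 0.443 that covers counting error only. All other C2C12 libraries had 5 counts or fewer, except 1 siTead1/4 library of day 3 with 40. Hey2 thus passed the filter on low counts through the day 0 group where it was high, which favours a fall from day 0. Its call (adjusted p = 0.0377) was lost when any of the 4 libraries was left out and in DESeq2 (adjusted p = 0.0711).

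The same genes were called at day 6 against day 0. Dll1 was at 28.1 and 30.5 CPM (5.12 ± 0.57, edgeR adjusted p = 9.01e-05 against day 0), Heyl at 28.8 and 55.7 CPM (5.30 ± 0.61, edgeR adjusted p = 1.03e-04) and Notch3 at 118 and 166 CPM (1.23 ± 0.20, edgeR adjusted p = 8.28e-04). Jag2 was at 39.4 and 52.9 CPM, a change of -1.43 ± 0.34, edgeR adjusted p = 0.00699, and Hey2 had 3 and 1 counts, a ratio of 0.173 with a 95% interval of 0.0438 to 0.498. As at day 3, Hey2 was tested here through the day 0 group where it was high. At this day 31.1% of all genes were called. Leaving out the second day 6 replicate took the change of Notch3 to 0.98 and ended its call, leaving out the first ended that of Jag2 (-1.23, adjusted p = 0.0648), and Hey2 again lost its call without any of the 4 libraries and in DESeq2 (adjusted p = 0.0859). Between day 6 and day 3 no member was called by edgeR or DESeq2, nor by edgeR any gene of the table (0%), and only Notch3 had an unadjusted p under 0.05 (-0.61 ± 0.20), beside 2.65% of all genes.

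The other 5 members were not called in C2C12 cells. The receptor Notch1 was at 30.7 and 44.4 CPM at day 0, 51.8 and 69.3 CPM at day 3 and 31.6 and 49.2 CPM at day 6, and Notch2 at 169.8 and 169, 177 and 186 and 129.7 and 111 CPM. The ligand Jag1 ranged over 13.5 and 12.2, 9.30 and 13.7 and 9.41 and 15.8 CPM. For Hes1 the levels were 51.5 and 52.4, 60.3 and 42.2 and 47.4 and 47.7 CPM, which gave a 95% interval of -0.76 to 0.64 for the log2 change to day 3. Hey1, a repressor of the same family as Heyl, was at 9.88 and 7.25, 9.67 and 9.61 and 7.38 and 10.1 CPM, with an interval of -0.49 to 0.76. Over the same step the summed level of the pericyte and smooth muscle markers went from a range of 136 to 142 CPM to one of 274 to 324 CPM, of the Schwann markers from a range of 6.70 to 7.13 CPM to one of 312 to 399 CPM and of the fibroblast markers from a range of 10.8 to 11.3 CPM to one of 87.8 to 197 CPM. Their part in the changes of the Notch genes was not tested.

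**Figure D2:**
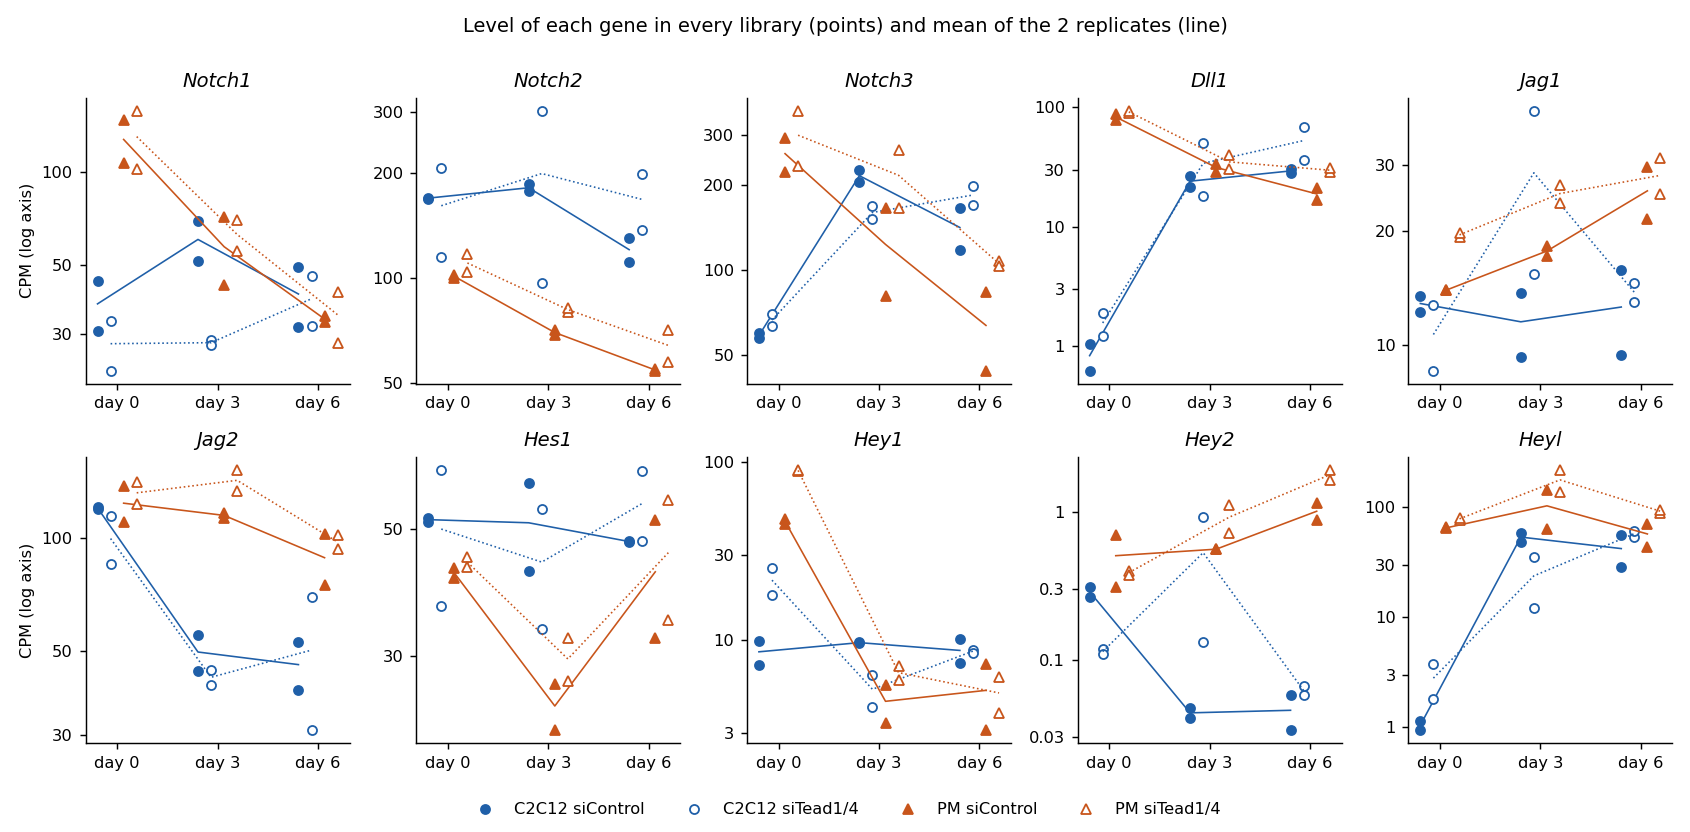
Level of each member in every library (CPM on a log axis) at day 0, day 3 and day 6, with circles for C2C12 cells, triangles for PMs, filled symbols for siControl, open symbols for siTead1/4 and lines through the means of the 2 replicates. In siControl cells Dll1 climbs in C2C12 cells from 1.04 and 0.622 to 28.1 and 30.5 CPM while it declines in PMs from 78.4 and 87.5 to 16.6 and 21.0 CPM.

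In siControl PMs, 4 of the 10 members were called from day 0 to day 3, all downward, where 32.3% of all 16144 genes tested were called and 14.9% fell. Hey1 went from 47.5 and 44.9 CPM to 3.42 and 5.61 CPM, a change of -3.41 ± 0.36, edgeR adjusted p = 1.69e-05. Dll1 went from 78.4 and 87.5 CPM to 28.9 and 33.7 CPM, a change of -1.46 ± 0.16, edgeR adjusted p = 1.87e-05. Both kept their calls without each of the 4 libraries. Over this step the summed pericyte and smooth muscle markers went from a range of 158 to 169.9 CPM to one of 362 to 396 CPM and the Schwann markers from a range of 126 to 134 CPM to one of 360.1 to 373 CPM, and their part was not tested.

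The receptors were lower as well, though their replicates spread more. Notch1 went from 147 and 107 CPM to 43.3 and 71.5 CPM, a change of -1.20 ± 0.28, edgeR adjusted p = 0.00389, and Notch3 from 294 and 224 CPM to 80.9 and 166 CPM, a change of -1.12 ± 0.39, edgeR adjusted p = 0.0278. Without the first day 0 replicate these came to -0.95 for Notch1 and -0.90 for Notch3, without the first day 3 replicate to -0.88 and -0.69, and none of the 4 values was called. Without the second day 3 replicate Notch3 reached -1.73. Notch2 and Hes1 passed the adjusted p alone, as did 58.8% of all genes. Notch2 went from 102 and 100.1 CPM to 68.6 and 70.5 CPM (-0.59 ± 0.11, edgeR adjusted p = 9.13e-04). Hes1 went from 42.8 and 41.0 CPM to 22.2 and 26.8 CPM (-0.83 ± 0.25, edgeR adjusted p = 0.0146).

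By day 6 the same 4 members were called against day 0, beside 35.5% of all genes, and none of these 4 calls was lost when a library was left out. Notch1 was at 32.8 and 34.4 CPM (-1.99 ± 0.29, edgeR adjusted p = 1.61e-04), Notch3 at 44.2 and 83.6 CPM (-2.08 ± 0.40, edgeR adjusted p = 0.00100), Dll1 at 16.6 and 21.0 CPM (-2.21 ± 0.16, edgeR adjusted p = 1.21e-06) and Hey1 at 3.11 and 7.30 CPM (-3.22 ± 0.36, edgeR adjusted p = 2.20e-05). For these genes both day 6 libraries lay under both day 0 libraries, which is no support beyond the calls by which they were chosen. Without the second day 6 replicate Hey1 reached -3.96. The summed fibroblast markers went from a range of 20.3 to 23.1 CPM at day 0 to one of 101 to 161 CPM at day 6, and their part was not tested. With the adjusted p alone 7 members passed, beside 61.4% of all genes, with Notch2 (-0.96 ± 0.11) and Jag2 (-0.55 ± 0.16) on the lower side and Jag1 (0.81 ± 0.16, edgeR adjusted p = 0.00128) on the higher. Jag1 was called without the second day 6 replicate (1.02). Hey2, with 0.90 ± 0.39, edgeR adjusted p = 0.0686, was called without the first day 0 replicate (1.63) and came to 0.45 without the second. Jag1, a ligand known from many developing tissues, was at 14.0 and 13.9 CPM at day 0, 18.2 and 17.2 CPM at day 3 and 29.7 and 21.6 CPM at day 6.

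From day 3 to day 6 no member was called in PMs by edgeR or DESeq2, where edgeR called 2.8% of all genes. By unadjusted p under 0.05 there were 8 members, beside 22% of all genes, and Dll1 alone passed the adjusted p (-0.75 ± 0.16, edgeR adjusted p = 0.0237), as did 6.25% of all genes. Hes1 was at 32.2 and 51.9 CPM at day 6 (0.77 ± 0.25, edgeR adjusted p = 0.10), and without the first day 6 replicate it was called (1.07, adjusted p = 0.0476), while without the second it came to 0.38. The others with an unadjusted p under 0.05 were Notch1 (-0.78 ± 0.28), Notch2 (-0.37 ± 0.11), Notch3 (-0.96 ± 0.39), Jag1 (0.52 ± 0.16), Jag2 (-0.38 ± 0.16) and Heyl (-0.86 ± 0.34), with edgeR adjusted p from 0.0787 to 0.187. Heyl had no called change in PMs, at 66.0 and 64.5, 64.1 and 143 and 44.1 and 70.7 CPM on the 3 days, with the widest gap between replicates at day 3. Hey2 was low throughout, at 0.699 and 0.310, 0.561 and 0.556 and 0.873 and 1.14 CPM, from 33 and 11 counts at day 0 to 27 and 35 at day 6.

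**Figure D3:**
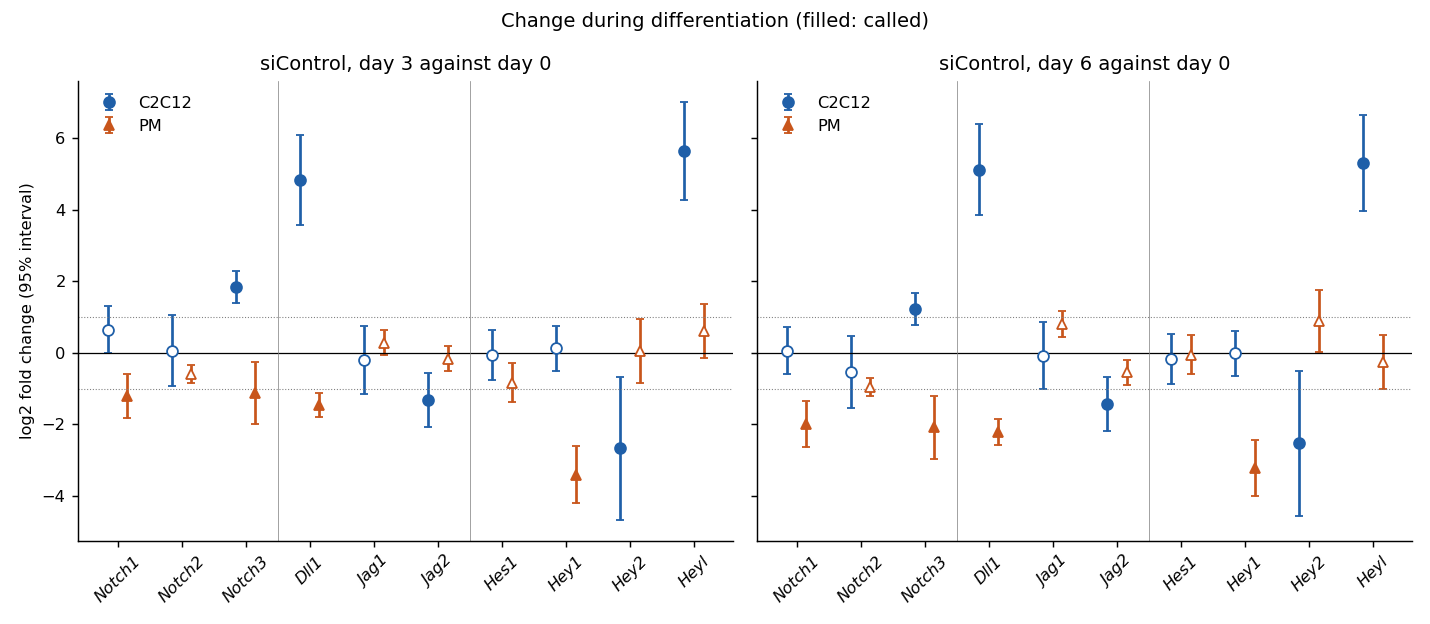
Log2 fold change with its 95% interval for each member over differentiation of siControl cells, from day 0 to day 3 and from day 0 to day 6, in C2C12 cells (circles) and PMs (triangles), with filled symbols for called changes and dotted lines at 1 and -1. Notch3 and Dll1 lie above 0 in C2C12 cells (1.23 ± 0.20 and 5.12 ± 0.57 at day 6) and below 0 in PMs (-2.08 ± 0.40 and -2.21 ± 0.16).

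Since Notch3 and Dll1 had called changes of opposite sign, the change in PMs minus that in C2C12 cells was fitted as an interaction term over all 24 libraries, a comparison that was added after these values were seen. The change from day 0 to day 3 differed for 5 of 10 members, all more negative in PMs than in C2C12 cells, where 11.2% of 16926 genes differed and 7.44% in that direction. They were Dll1 (-6.29 ± 0.58, edgeR adjusted p = 1.50e-06), Heyl (-5.03 ± 0.71, edgeR adjusted p = 1.10e-04), Hey1 (-3.53 ± 0.48, edgeR adjusted p = 8.96e-05), Notch3 (-2.94 ± 0.47, edgeR adjusted p = 4.02e-04) and Notch1 (-1.83 ± 0.44, edgeR adjusted p = 0.0101). The call of Notch1 was lost without any of 4 of the 8 libraries (-1.61 to -1.52, adjusted p from 0.0509 to 0.0640), which were the first day 0 replicate of either cell type, the first PM replicate of day 3 and the second C2C12 replicate of day 3. Without the second PM replicate of day 3 the difference was -3.54 for Notch3 and -5.70 for Heyl. Jag2 was on the positive side without a call (1.17 ± 0.39, edgeR adjusted p = 0.0579), and was called by DESeq2 (adjusted p = 0.0279), without the filter on low counts (0.00667) and from the 8 libraries alone (0.00396). Hey2 was also positive (2.75 ± 0.98, edgeR adjusted p = 0.0769) and was called without the filter (0.0394) and from the 8 libraries alone (0.0350). Its value rests on 2 and 2 counts of C2C12 cells at day 3, under the floor of 3 counts.

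For the change from day 0 to day 6 the interaction was called for 6 members, where 12.7% of all genes differed. Dll1 (-7.31 ± 0.59), Heyl (-5.53 ± 0.71), Notch3 (-3.29 ± 0.48), Hey1 (-3.18 ± 0.48) and Notch1 (-2.02 ± 0.45) were again more negative in PMs, and these calls held without each library, Hey1 with -3.91 without the second PM replicate of day 6. Hey2 was more positive in PMs (3.45 ± 0.97, edgeR adjusted p = 0.0230), a value that rests on the 3 and 1 counts of C2C12 cells at day 6. Its call was lost when any of 6 of the 8 libraries was left out, the exceptions being the first PM replicate of day 0 (4.19 without it) and of day 6. Jag2 was not called (0.90 ± 0.39, edgeR adjusted p = 0.146). Myog, the transcription factor that marks the onset of differentiation, stood at 9.68 and 2.91 CPM in siControl C2C12 cells at day 0 and at 959.7 and 1039 CPM in PMs at day 0, close to the PM levels of 986 and 1168 CPM at day 3. Its part in the difference of the Notch genes was not tested.

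The levels of both cell types were next set against each other on each day, where cell type, strain, culture medium and matrigel coating differ together. In siControl cells at day 0, 5 of 10 members were called, all higher in PMs, where 26.8% of all genes were called and 16.3% were higher in PMs. These day 0 differences also enter the interaction terms above, so they are no separate results. Dll1 was 6.67 ± 0.48 higher on the log2 scale (edgeR adjusted p = 1.10e-08) and Heyl 5.97 ± 0.58 (edgeR adjusted p = 4.06e-07). Heyl was at 66.0 and 64.5 CPM in PMs against 1.15 and 0.942 CPM in C2C12 cells. Hey1 differed by 2.44 ± 0.35, Notch3 by 2.14 ± 0.34 and Notch1 by 1.76 ± 0.32, and all 5 calls held without each of the 4 libraries. Hes1 was not called at this day, with 42.8 and 41.0 CPM in PMs and 51.5 and 52.4 CPM in C2C12 cells (95% interval -0.94 to 0.32), nor was Notch2 (-0.75 ± 0.35, edgeR adjusted p = 0.105).

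At day 3 the picture was mixed, with 2 members higher and 3 lower in PMs and 29.8% of all genes called. Jag2 was higher in PMs, at 117 and 114 CPM against 44.3 and 55.3 CPM (1.21 ± 0.28, edgeR adjusted p = 0.00205). Hey2 was higher too, from 20 and 22 counts against 2 and 2, a ratio of 12.8 with a 95% interval of 4.65 to 49.2 (counting error only). Notch2 was lower in PMs, at 68.6 and 70.5 CPM against 177 and 186 CPM (-1.38 ± 0.36, edgeR adjusted p = 0.00459), and these 3 calls held without each library. Hes1 (-1.06 ± 0.30, edgeR adjusted p = 0.00835) and Hey1 (-1.09 ± 0.34, edgeR adjusted p = 0.0154) were lower in PMs as well. Hes1 lost its call without the first replicate of C2C12 cells (-0.81) or of PMs (-0.96). Hey1 lost its call without either C2C12 replicate (-1.11 and -1.10) or the first PM replicate (-0.81). Notch3 (-0.81 ± 0.33, edgeR adjusted p = 0.0558) was called without the second PM replicate (-1.43).

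At day 6, 4 members were called where 24.9% of all genes were. Hey2 was higher in PMs, from 27 and 35 counts against 3 and 1, a ratio of 20.6 with a 95% interval of 7.65 to 77.9. Jag1 was higher at 29.7 and 21.6 CPM against 9.41 and 15.8 CPM (1.03 ± 0.35, edgeR adjusted p = 0.0291), and Notch2 and Notch3 were lower (-1.15 ± 0.36, edgeR adjusted p = 0.0175, and -1.15 ± 0.33, edgeR adjusted p = 0.0120). The call of Jag1 was lost without the first replicate of C2C12 cells (0.68) or of PMs (0.76), and that of Notch3 without the second C2C12 replicate (-0.90) or the first PM replicate (-0.78). Notch2 lost its call without the first C2C12 replicate (-1.06) or either PM replicate (-1.17 and -1.16). Jag2 passed the adjusted p alone (0.95 ± 0.28, edgeR adjusted p = 0.0129) and was called without the second C2C12 replicate (1.16) or the first PM replicate (1.13). Hey1 (-0.74 ± 0.34, edgeR adjusted p = 0.10) was called without the second PM replicate (-1.5).

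The central comparison of the study, siTead1/4 against siControl, gave no called member in either cell type on any day in the main edgeR fits. The share of all genes called was 0.438%, 1.27% and 0.0457% at day 0, day 3 and day 6 in C2C12 cells and 2.6%, 3.3% and 0.743% in PMs. DESeq2 called 1 member in C2C12 cells at day 0 (Hey1) and 1 at day 3 (Notch1), and none in the other 4 comparisons. By unadjusted p under 0.05 there were 2, 6 and 0 members in C2C12 cells, beside 10.5%, 14.2% and 6.95% of all genes, and 2, 2 and 2 in PMs, beside 23.3%, 22.7% and 11.9%.

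In C2C12 cells at day 0 the target Hey1 was at 9.88 and 7.25 CPM in siControl and 17.9 and 25.4 CPM in siTead1/4 cells (1.33 ± 0.29, edgeR adjusted p = 0.0833). It passed both thresholds in DESeq2 (adjusted p = 0.00205) and when all 24 libraries were fitted together (adjusted p = 0.0413). In PMs at the same day Hey1 was at 47.5 and 44.9 and 89.2 and 89.5 CPM (0.94 ± 0.31, edgeR adjusted p = 0.101). The difference of the 2 effects had a 95% interval of -1.37 to 0.59. Heyl in C2C12 cells was at 1.15 and 0.942 CPM in siControl and 1.81 and 3.80 CPM in siTead1/4 cells (1.41 ± 0.56, edgeR adjusted p = 0.400), and without the second siTead1/4 replicate its change was 0.77.

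At day 3 the 2 siTead1/4 libraries of C2C12 cells differed from each other in many members. The second replicate had 41.9 CPM of Jag1 against 15.4 in the first, 40 against 5 counts of Hey2, and 96.5 CPM of Notch2 against 302 CPM. It also had less Dll1, 17.9 against 49.9 CPM, and less Heyl, 12.2 against 35.6 CPM. Notch1 was alike in both siTead1/4 libraries, at 28.7 and 27.7 CPM against 51.8 and 69.3 CPM in siControl (-1.13 ± 0.30, edgeR adjusted p = 0.111), and DESeq2 called it (adjusted p = 0.0194). The summed myoblast markers were at 2483 to 3758 CPM in these libraries against 4946 to 5072 CPM in siControl, the Schwann markers at 101 to 191 against 312 to 399, the fibroblast markers at 30.1 to 47.3 against 87.8 to 197 and the pericyte and smooth muscle markers at 257 to 506 against 274 to 324. Their part in these values was not tested.

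Hey1 was at 4.21 and 6.34 CPM against 9.67 and 9.61 CPM in siControl (-0.90 ± 0.29, edgeR adjusted p = 0.170). Heyl was under its siControl level of 48.4 and 59.1 CPM in both libraries (-1.19 ± 0.50, edgeR adjusted p = 0.304). Notch3 was at 169 and 151 CPM against 206 and 227 CPM (-0.46 ± 0.20, edgeR adjusted p = 0.319). Jag1 (1.28 ± 0.43, edgeR adjusted p = 0.193) and Hey2 (ratio 12.8 with a 95% interval of 4.65 to 48.8, counting error only) lay above siControl. For Hey2, 40 of the 45 pooled siTead1/4 counts came from the second library. With all 24 libraries in 1 fit edgeR called Notch1 (-1.10, adjusted p = 0.0493), Jag1 (1.32, 0.0370) and Hey2 (0.0119). Without the second siTead1/4 replicate the log2 change was 0.41 for Jag1, 1.53 for Hey2 and -0.60 for Heyl, and none was called. Without the first these changes were 1.85, 4.3 and -2.16, and Jag1 and Hey2 were called. At day 6 no member had an unadjusted p under 0.05, with Dll1 at 68.9 and 36.3 CPM in siTead1/4 and 28.1 and 30.5 CPM in siControl cells (95% interval -0.18 to 1.88).

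**Figure D4:**
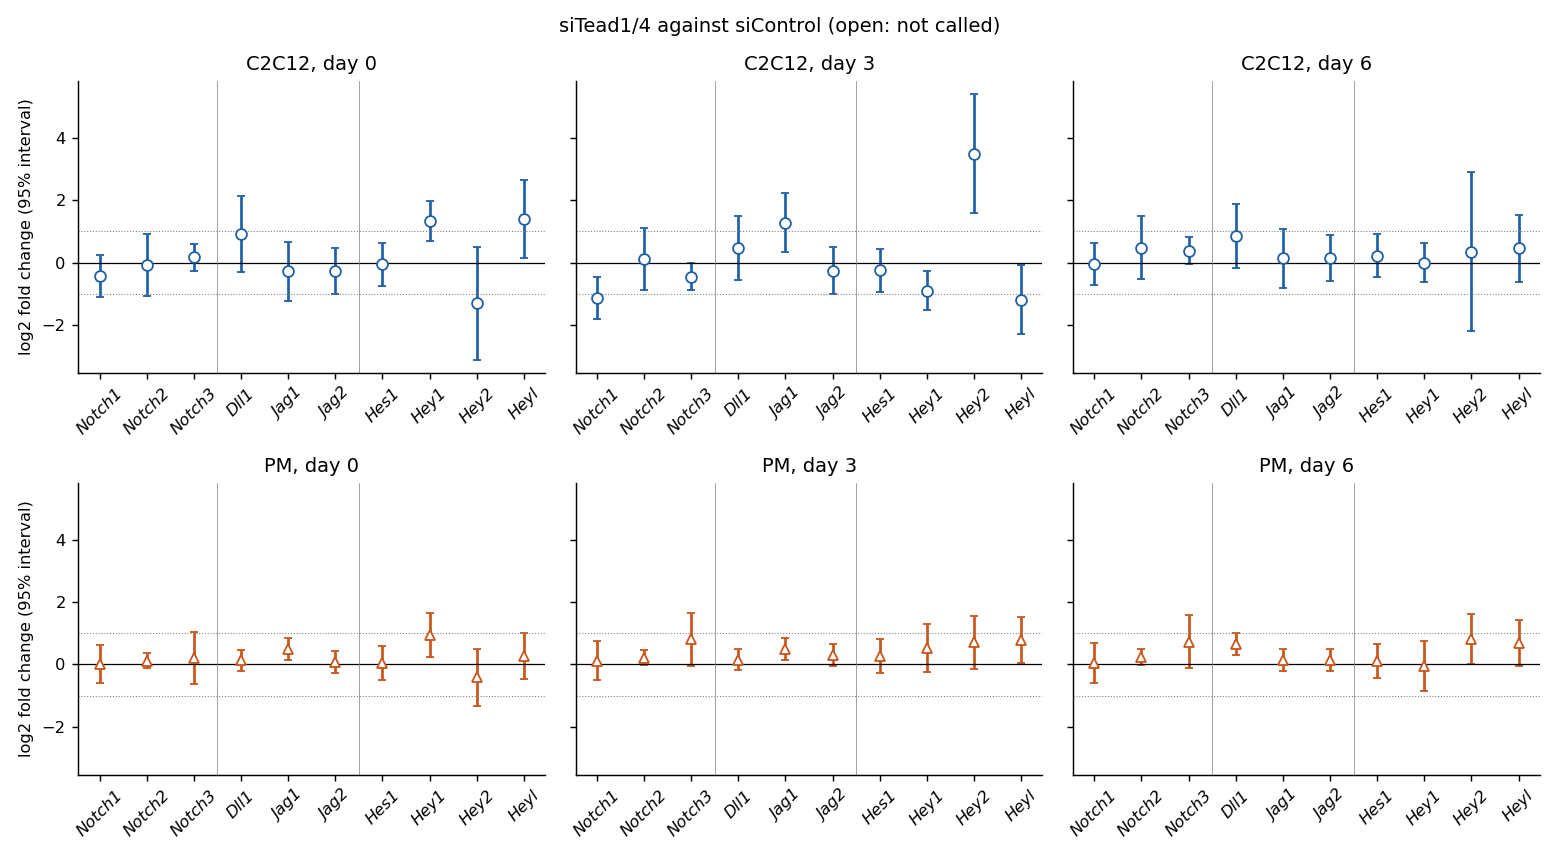
Log2 fold change of each member with its 95% interval for siTead1/4 against siControl, in C2C12 cells (circles, upper row) and PMs (triangles, lower row) at day 0, day 3 and day 6, with dotted lines at 1 and -1. All symbols are open since no member was called, and in PMs at day 3 all 10 lie above 0, with a median of 0.40.

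In PMs most members had positive fold changes, none of them called. At day 3 there were 10 of 10, with a median of 0.40 on the log2 scale against 0.0079 over all genes tested. At day 0 there were 9 of 10, with a median of 0.13 against -0.0066, and at day 6 there were 9 of 10, with a median of 0.19 against 7e-04. In 7 of 10 members at day 3 both siTead1/4 libraries exceeded both siControl libraries, a pattern shown by 27.4% of all genes tested. The narrowest 95% intervals at day 3 were those of Notch2 (-0.03 to 0.45) and Dll1 (-0.19 to 0.49), which lie within 1 on the log2 scale. Some markers of other cell types were called with siTead1/4. At day 0 Tek of the endothelial list, at 0.635 to 3.15 CPM in PMs, rose (1.5 ± 0.28, edgeR adjusted p = 0.0115). The whole endothelial list summed to 5.37 to 15.2 CPM with siTead1/4 and 3.04 to 10.1 CPM in siControl at that day, and these ranges overlap. The summed pericyte and smooth muscle markers were then at 224 to 234 CPM against 158 to 169.9 CPM and the Schwann markers at 84.4 to 99.97 CPM against 126 to 134 CPM. At day 6 Dcn (-2.46 ± 0.39, edgeR adjusted p = 0.0184) and Lum (-2.79 ± 0.50, edgeR adjusted p = 0.0290) of the fibroblast list fell. The summed fibroblast markers were at 72.4 to 75.7 CPM against 101 to 161 CPM in siControl. Lum was at no more than 1.71 CPM in any PM library. Dcn was also present in the C2C12 line, with a change of -2.25 ± 0.70 at day 3 (edgeR adjusted p = 0.159). It is therefore not particular to fibroblasts here. At day 3 the summed Schwann markers were at 237 to 290.0 against 360.1 to 373 CPM and the myoblast markers at 6879 to 7791 against 8707 to 8735 CPM. Their part in the values of the Notch genes was not tested.

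The ligand Jag1 was at 19.4 and 19.8 CPM in siTead1/4 against 14.0 and 13.9 CPM in siControl PMs at day 0 (0.48 ± 0.16, edgeR adjusted p = 0.0999) and at 26.6 and 23.8 against 18.2 and 17.2 CPM at day 3 (0.50 ± 0.16, edgeR adjusted p = 0.0876). Dll1 at day 6 was at 28.6 and 30.8 against 16.6 and 21.0 CPM (0.66 ± 0.16, edgeR adjusted p = 0.0811). For Heyl at day 3 the levels were 138 and 218 against 64.1 and 143 CPM (0.77 ± 0.33, edgeR adjusted p = 0.201). The siTead1/4 library was the higher in both replicate numbers. The change was 0.31 without the first siControl library and 1.46 without the second. Same-numbered siControl and siTead1/4 libraries of PMs at day 3 deviated together (r = 0.514), and leaving out 1 siControl library removes only 1 side of such a pair. With a replicate block Heyl passed the adjusted p but not the limit on the fold change, as given in the last section. Hey2 at day 6 had 66 and 53 counts against 27 and 35 (0.82 ± 0.36, edgeR adjusted p = 0.416). Notch3 at day 3 was at 167 and 267 CPM against 80.9 and 166 CPM, with a 95% interval of -0.05 to 1.65.

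No member was called in the main edgeR fit or by DESeq2 for a difference of the siTead1/4 effect between PMs and C2C12 cells, at background shares of 0.00591%, 1.25% and 0.0354% at day 0, day 3 and day 6. Without the filter on low counts edgeR called Heyl (adjusted p = 1.55e-04), Notch3 (0.0106), Notch1 (0.0119) and Hey1 (0.0140) at day 3. The share of all genes called in that fit was not counted. By unadjusted p under 0.05 there were 0, 5 and 0 members, beside 4.28%, 13% and 5.41% of all genes. The 5 at day 3 were Heyl (1.96 ± 0.64, edgeR adjusted p = 0.162), Hey1 (1.40 ± 0.48), Notch3 (1.24 ± 0.47) and Notch1 (1.23 ± 0.44), with the effect in PMs the more positive, and Hey2 (-2.81 ± 0.95). The value of Hey2 rests on 2 and 2 counts in siControl C2C12 cells and on 40 counts in 1 siTead1/4 C2C12 library. Without the first siTead1/4 replicate of C2C12 cells Hey2 (-3.61, adjusted p = 0.00558) and Heyl (2.92, adjusted p = 0.0158) were called, and without the second Hey2 came to -0.80. The 95% intervals of the members reached a median of 1.03 to either side of the estimate at day 3.

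Of 44 other genes of the pathway, 35 were tested in C2C12 cells and 39 in PMs. In siControl C2C12 cells 5 rose and 2 fell from day 0 to day 3, 7 of 35 and so a smaller share than the 28.7% of all genes. The rises included Neurl1a, a ubiquitin ligase for Notch ligands (20.9 ± 3.00 to 246 ± 11.3 CPM, mean ± SD, n = 2, 3.52 ± 0.39), the Deltex family gene Dtx4 (3.39 ± 0.32) and the Hes family gene Hes6 (29.5 ± 6.94 to 271 ± 9.24 CPM, 3.16 ± 0.40). Also called were the presenilin gene Psen2 of the receptor-cleaving complex (2.11 ± 0.25) and Fbxw7, which directs the cleaved receptor to degradation (1.69 ± 0.32). Dlk2, a ligand-like protein, fell (6.43 ± 3.61 to 0.892 ± 0.173 CPM, -2.89 ± 0.60). In PMs 5 rose and 5 fell, 10 of 39, again a smaller share than the 32.3% of all genes. Neurl1a (2.13 ± 0.22), Psen2 (2.03 ± 0.23) and Fbxw7 (1.79 ± 0.16) rose there too, and Lfng, which glycosylates the receptors, fell from 28.5 ± 8.86 to 1.83 ± 0.372 CPM (-4.0 ± 0.27, edgeR adjusted p = 9.55e-07), as did Dlk2 (-2.65 ± 0.41) and Dlk1 (-2.31 ± 0.36).

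Rbpj, the DNA-binding partner of the cleaved receptor, was chosen after its values were seen. It fell in PMs from 198 ± 7.48 to 84 ± 13 CPM (-1.29 ± 0.12, edgeR adjusted p = 6.61e-06), and in C2C12 cells it was at 99.9 ± 7.38 and 78.5 ± 4.59 CPM. With siTead1/4 the only call among these genes was Dlk2 in PMs at day 3, which rose from 2.05 ± 0.357 to 10.9 ± 2.29 CPM (2.40 ± 0.41, edgeR adjusted p = 0.00745). No other gene of the list was called in PMs, and none in C2C12 cells on any day, by edgeR.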

How the data were processed

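RNA-seq libraries (24) were grouped by cell type, siRNA and day from the labels. The authors mapped reads to mm9, and the deposited count table holds raw read counts per Ensembl gene, with gene lengths and positions. The submitters' processing notes name CASAVA 1.8.2, TopHat2 2.0.10, Bowtie2 2.1.0, HTSeq 0.6.1 and DESeq2 1.8.1. The table also has 36 per-sample columns of 12 libraries outside the listed samples, which were not used. Deposited normalized values were not used either.

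The tests used edgeR 4.0.16 in R 4.3.3 (filterByExpr, TMM, glmQLFit, glmQLFTest, Benjamini-Hochberg over all genes tested), limma 3.58.1 and DESeq2 1.42.0. C2C12 cells and PMs had separate fits of 6 group means (15303 genes in C2C12 cells, 16144 in PMs), and PMs were compared with C2C12 cells, and effects between them, in 1 fit of 12 means (16926 genes). There were 18 comparisons, and 2 interactions of differentiation were added after the data were seen. Calls used the thresholds of the study, an adjusted p below 0.05 with a log2 fold change beyond 1 in either direction. SE is the log2 fold change divided by the root of F, and intervals are 95%. With 2 replicates a group, edgeR shares the spread among genes and groups (biological coefficient of variation 0.242, 0.15 and 0.202 in the 3 fits). The counts of replicates differed by more than sampling noise (chi-square per gene 16.9 to 292.9). Ratios for Hey2 are pooled counts over TMM library sizes with exact Poisson intervals. The fits were also run on simulated counts with the same dispersion for every gene and independent replicates. Those settings differ from these data, so the run does not show how the fits behave here.

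All 10 members were described, by their values or, where the unadjusted p was not under 0.05, by levels, counts or intervals. Of 44 other pathway genes, those called with siTead1/4 in a cell type, and those called from day 0 to day 3, were named up to the 6 with the largest absolute change. The members, gene lists and marker lists (myoblast, fibroblast, endothelial, pericyte and smooth muscle, macrophage, Schwann) were chosen with earlier results of these data known. Promoter windows came from RefSeq on GRCm38.p6. Alternatives were DESeq2 size factors, the DESeq2 test, no filter, a replicate block, fewer or more libraries in the fit, adjusted p alone, and each library left out.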

Additional observations from a re-analysis of the deposited data

Results flagged for a closer look

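The changes that differed between the cell types in the added test of the difference itself (PM minus C2C12, siControl, edgeR interaction over 24 libraries with 2 replicates a group) were flagged. From day 0 to day 3 they were Dll1 at -6.29 ± 0.58, Heyl at -5.03 ± 0.71, Hey1 at -3.53 ± 0.48, Notch3 at -2.94 ± 0.47 and Notch1 at -1.83 ± 0.44 on the log2 scale (± SE). From day 0 to day 6 they were Dll1 at -7.31 ± 0.59, Heyl at -5.53 ± 0.71, Notch3 at -3.29 ± 0.48, Hey1 at -3.18 ± 0.48, Notch1 at -2.02 ± 0.45 and Hey2 at 3.45 ± 0.97. Of these, Dll1 and Notch3 rose in C2C12 cells and fell in PMs in called comparisons of their own at both days, Heyl rose in C2C12 cells and was not called in PMs, and Hey1 and Notch1 fell in PMs and were not called in C2C12 cells. Both tests share the day 0 libraries, so they are not independent of each other. At day 0 the 5 members with a negative difference were higher in PMs than in C2C12 cells, which is no separate result since the day 0 levels enter the tested difference. Myog was at 959.7 and 1039 CPM in PMs at day 0 against 9.68 and 2.91 CPM in C2C12 cells. The state of the cells at day 0, the cell type, the strain, the culture medium and the matrigel coating cannot be told apart here.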

How the results depend on the processing

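The number of members called stayed within 1.5 times its main value in 20 of 20 comparisons with DESeq2 size factors, in 20 of 20 with a replicate block and in all fits of only the 4 or 8 libraries compared. With siTead1/4 in C2C12 cells, where the main counts were 0, all 24 libraries in 1 fit gave 1 call at day 0 and 3 at day 3, the DESeq2 test 1 and 1, and no filter on low counts 2 and 4. Without the filter the day 3 silencing effect, PM minus C2C12, had 4 calls in place of 0. The cause of these moves was not tested. With the adjusted p alone, 7 members passed in siControl PMs from day 0 to day 6 and 1 from day 3 to day 6, since that rule has no limit on the fold change.

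Leaving out 1 library at a time gave 0 to 2 calls for siTead1/4 in C2C12 cells at day 3 (2 without the first siTead1/4 replicate), 0 to 1 in PMs at day 3 (1 without the second siControl replicate), and 0 to 2 for the difference of these effects. For siControl C2C12 cells it gave 3 to 4 calls from day 0 to day 3 and 3 to 4 from day 0 to day 6. In siControl PMs there were 2 to 4 from day 0 to day 3 (2 without the first day 0 replicate), 4 to 5 from day 0 to day 6 and 0 to 1 from day 3 to day 6. PM against C2C12 had 3 to 6 calls at day 3 and 2 to 4 at day 6. No fold change with an unadjusted p under 0.05 changed sign in any alternative. The calls of the other pathway genes were not recomputed under these alternatives. A lone library left in a group is assumed to vary like the other groups.

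Labels number the replicates in each group without saying what a number shares. The deviations of same-numbered libraries correlated at -0.323 to 0.614 over 15 pairs of groups in C2C12 cells (6 above 0.1) and 0.073 to 0.664 in PMs (14 above 0.1). In PMs the siControl and siTead1/4 libraries of the same day were at 0.524, 0.514 and 0.664 at day 0, day 3 and day 6, so same-numbered PM libraries deviated together. The main tests had no block, since no label gives the pairing and not every correlation was above 0.1. In PMs, which had a fit of their own, 14 of 15 were above 0.1. The main PM tests of siTead1/4 therefore left out a shared deviation that these correlations show. With the replicate block Hey2 lost its call in C2C12 cells at day 6 against day 0 (-2.44, adjusted p = 0.0535) and Jag2 gained one in the difference of the change to day 3 (1.19, adjusted p = 0.0178). The siTead1/4 change of Heyl in PMs at day 3 then passed the adjusted p but not the limit on the fold change (0.81, adjusted p = 0.0429). Depth limits Hey2 most among the members, with 1 to 3 counts in each siControl C2C12 library of day 3 and day 6.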
